A study of Mus musculus with 6 samples.

Results

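The genes described here were those of the ephrin, semaphorin, Slit and netrin guidance systems: every row of the deposited count tables whose symbol began with Sema, Plxna to Plxnd, Epha, Ephb, Efna, Efnb or Unc5 in the numbered form of the family, or named a neuropilin, Slit, Robo or netrin. The rule found 69 genes among the 16279 symbols listed in either table. Of these, 50 were listed for both cell types, 16 only for the cardiac cells and 3 only for the stem cells. Spelling alone brought in 3 genes that are not guidance ligands or receptors, namely Unc50, Unc5cl and the antisense transcript Plxna4os1, which leaves 34 ligand genes and 32 receptor genes. The annotation holds 4 further symbols that fit the rule (Epha8, Sema3g, Plxna4os2 and Plxna4os3), and these were listed in neither table.

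The data were RNA-seq counts of poly(A) RNA from mouse embryonic stem cells (mESCs) and from cardiac precursor cell cultures (CPCCs), with 3 libraries per cell type. All came from male F1 hybrid C57BL/6 x CAST/EiJ cells (C57BL/6J mothers per the study's methods), with each mESC clone grown from a separate blastocyst. The mESCs were kept without feeders in 2i medium with LIF, which holds them undifferentiated. The CPCCs were made from those clones through hanging drops and embryoid bodies treated with ascorbic acid and were then enriched and passaged in medium with EGF and Fgf2, so that they were mixed cultures and the medium differed between the groups along with the cell type. The libraries are named S01 to S03 (mESC) and S04 to S06 (CPCC) as in the tables, where the columns give the cell type but not the clone.

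Guidance proteins tell moving cells and growing axons where to go. Ephrins are held on the cell surface, by a lipid anchor in the A class and by a membrane-spanning part in the B class, and they bind Eph receptor tyrosine kinases on neighbouring cells, with signals passing into both cells. Semaphorins act through plexins, with neuropilins as co-receptors for most of the secreted class 3 members, Slits act through Robo receptors, and netrins through Dcc, Neo1 and the Unc5 receptors. The same proteins shape blood vessels, the outflow tract and the valves of the heart, and the migration of neural crest.

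Counts over the genes of each table were 6442639 to 6907330 per mESC library and 8468819 to 11436062 per CPCC library, and 3 counts, the floor used below for genes left out of a table, were worth 0.298 to 0.463 counts per 1000000 counts of the library (CPM). Libraries of a cell type lay close to each other over all genes, except that S04 stood further from S05 and S06 (root mean square log2 distance 0.76 and 0.88) than these did from each other (0.53). All 8 pluripotency markers checked were lower in the CPCCs, with summed levels of 4506 to 4954 CPM in mESCs and 147 to 309 CPM in CPCCs. Of 10 cardiac progenitor markers, Tnnt2 was higher, Isl1, Gata4 and Pdgfra did not pass the test (Pdgfra did without S04), Nkx2-5, Mef2c, Hand2, Myh6 and Kdr were listed only for CPCCs, Tbx5 was listed only for mESCs, and the sum went from 4.41 to 6.33 CPM up to 53.8 to 161 CPM. Mesenchymal markers rose far more (10.8 to 18.6 CPM against 11805 to 18107 CPM, 4 of 4 tested higher and 6 of 10 listed only for CPCCs). Neural markers were higher as well (435 to 462 against 1065 to 1280 CPM, 7 of 8 tested higher and 2 of 10 listed only for CPCCs). Endothelial markers were lower in sum (130.3 to 146 against 22.4 to 39.4 CPM, with 2 of 3 tested lower, Cdh5, Emcn and Esam listed only for CPCCs, Erg only for mESCs and Tie1 for neither). Most of the endothelial sum in mESCs was Pecam1 (mean 91.1 CPM, 4.44 in CPCCs) and Egfl7 (41.9 and 11.5 CPM), so the sum describes mainly these genes. The part of the marked cell types in the guidance gene differences was not tested, and in bulk cultures fewer cells of a type and less RNA per cell cannot be told apart.

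The promoters of 4 genes are shown because they stand for the patterns described below: Nrp1 had the largest rise of the members tested, Efna5 the largest rise of an ephrin, Sema3a was listed only for CPCCs, and Sema4a had the largest fall of the members tested. Each is the RefSeq stretch from 250 bases before to 50 bases after a gene start (GRCm38.p6), read 5′ to 3′ on the strand of the gene, with CpG dinucleotides in capitals. For Sema4a, which has 4 starts in the table, the outermost is printed.
Nrp1, chr8:128358823-128359122, + strand: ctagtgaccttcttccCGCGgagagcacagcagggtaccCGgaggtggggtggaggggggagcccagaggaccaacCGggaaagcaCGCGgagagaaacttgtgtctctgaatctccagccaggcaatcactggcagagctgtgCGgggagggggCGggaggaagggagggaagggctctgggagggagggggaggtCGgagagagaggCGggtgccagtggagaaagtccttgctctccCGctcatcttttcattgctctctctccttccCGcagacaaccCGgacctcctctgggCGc
Efna5, chr17:62881268-62881567, - strand: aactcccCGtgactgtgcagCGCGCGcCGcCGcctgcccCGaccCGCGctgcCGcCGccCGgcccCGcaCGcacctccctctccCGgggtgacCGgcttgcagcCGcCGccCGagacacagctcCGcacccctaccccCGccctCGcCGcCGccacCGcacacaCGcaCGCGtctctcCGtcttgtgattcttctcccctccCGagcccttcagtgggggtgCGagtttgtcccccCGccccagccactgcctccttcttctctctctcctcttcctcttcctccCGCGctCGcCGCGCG
Sema3a, chr5:13396534-13396833, + strand: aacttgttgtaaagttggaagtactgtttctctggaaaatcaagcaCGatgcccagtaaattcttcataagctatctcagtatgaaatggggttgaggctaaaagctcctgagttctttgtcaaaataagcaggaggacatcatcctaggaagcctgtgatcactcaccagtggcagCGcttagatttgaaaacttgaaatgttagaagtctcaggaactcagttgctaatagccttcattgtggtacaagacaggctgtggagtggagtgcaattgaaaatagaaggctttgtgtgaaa
Sema4a, chr3:88461133-88461432, - strand: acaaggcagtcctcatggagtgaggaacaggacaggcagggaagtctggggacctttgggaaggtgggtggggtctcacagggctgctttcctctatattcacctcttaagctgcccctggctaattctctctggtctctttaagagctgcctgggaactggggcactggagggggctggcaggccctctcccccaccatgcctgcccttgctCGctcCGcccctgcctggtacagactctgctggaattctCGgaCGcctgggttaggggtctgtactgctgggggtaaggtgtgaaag
The Efna5 stretch held 38 CpGs, 1.10 times the number its base composition gives by chance, and the Nrp1 stretch held 14 (0.47 times). The Sema3a and Sema4a stretches held 2 and 4 (0.16 and 0.15 times). The Sema4a starts that are not printed had higher ratios, of 0.31, 0.53 and 0.20. The genes that rose or were listed only for CPCCs thus included promoters both rich and poor in CpG.

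Guidance genes were mostly higher in CPCCs. Among the 49 members with enough counts to test, 33 were higher (67.3%), 2 were lower (4.08%) and 14 did not pass the threshold by edgeR's quasi-likelihood test at an adjusted p under 0.05, while over all 12471 genes tested 31.7% were higher and 29.7% lower (61.4% in either direction). The median log2 fold change (CPCC over mESC) of the members tested was 2.41, against 0.03 over all genes tested, and it was 2.25 over 68 members once those of 1 table entered at their bound. The members tested are those that passed a filter on low counts, which genes expressed in either cell type alone can pass, so that these counts are a description. With 10 counts required in every sample, 20 members were higher and the median rise was smaller, as given in the last section. The 3 libraries of each cell type did not overlap for 41 of the 49 (69.7% of all genes tested), and 12 members rose at least 16-fold (3.83% of all genes tested). Without S04, 34 members were higher and 3 lower. Together the 69 genes held 0.0670% to 0.0745% of the counts in mESC libraries and 0.344% to 0.397% in CPCC libraries.

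**Figure D1:**
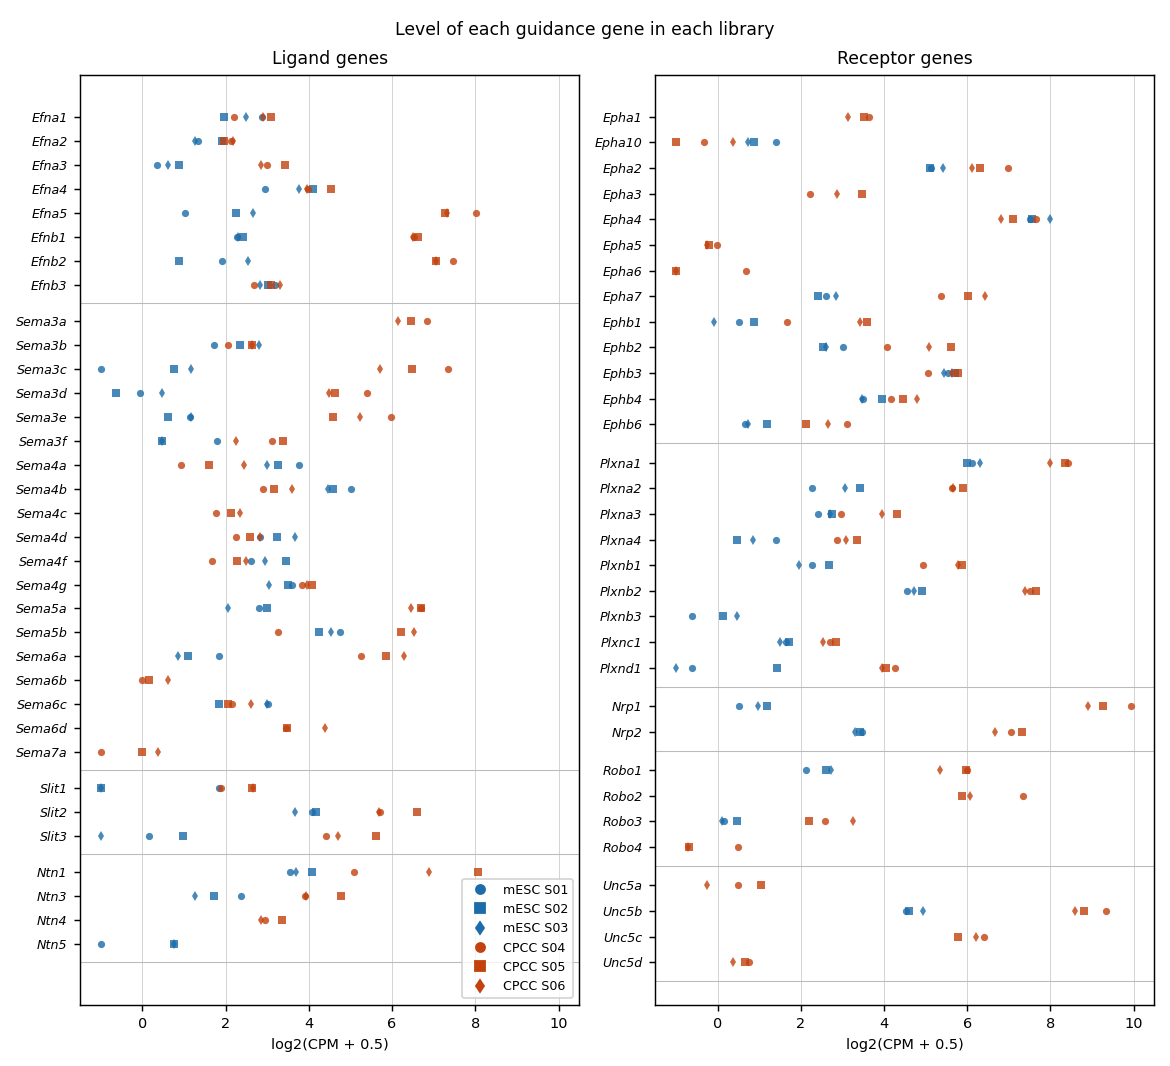
Level of each of the 66 guidance ligand and receptor genes in every library, as log2(CPM + 0.5) on the horizontal axis, with mESC libraries in blue and CPCC libraries in orange and ligand genes (left) set apart from receptor genes (right). A gene with no blue or no orange points was not listed for that cell type, and the orange points lie to the right of the blue ones for most genes, with Sema4a, Sema4b, Sema4d, Sema4f, Epha10 and Epha4 among those where they do not.

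Of the 27 ligand genes tested, 14 were higher, 2 were lower and 11 did not pass. Of the 21 receptor genes tested, 19 were higher, none was lower, and Epha4 and Ephb3 did not pass. Whether these 2 shares differ was not tested. Summed over ligand genes the level was 190.3, 183 and 174 CPM in S01 to S03 against 1281, 1421 and 1168 CPM in S04 to S06. Over receptor genes it was 441, 468 and 541 CPM against 3183, 2544 and 2132 CPM.

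Among the 8 ephrins, which were all tested, 4 were higher in CPCCs and 4 did not pass. Efna5, a lipid-anchored ephrin that binds EphA receptors, had 1.54, 4.27 and 5.85 CPM in S01 to S03 against 258, 154 and 159 CPM in S04 to S06. The lowest CPCC library was far above the highest mESC library, and the log2 fold change was 5.60 ± 0.43 (SE; edgeR adjusted p = 1.10e-05). Efnb2, a B-class ephrin known as a marker of arteries, had 3.24, 1.32 and 5.27 CPM against 177, 132 and 132 CPM, a rise of 5.48 ± 0.40 (adjusted p = 8.54e-06). Efnb1, a B-class ephrin encoded on the X chromosome, was the most even, with 4.33, 4.85 and 4.39 CPM against 91.0, 98.2 and 90.4 CPM and a log2 fold change of 4.36 ± 0.20. Efna3 rose by less and from a lower level (log2 fold change 2.95).

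The ephrins that did not pass were at low levels in both cell types. Efna4 had 7.26, 16.6 and 13.0 CPM in mESCs against 15.3, 22.8 and 14.9 CPM in CPCCs, and its groups overlapped (log2 fold change 0.52 ± 0.35, edgeR adjusted p = 0.22). Efnb3, a B-class ephrin, had 8.65, 7.65 and 6.58 CPM against 5.86, 8.003 and 9.40 CPM, with S04 below the mESC libraries, S05 among them and S06 above them (0.02 ± 0.34, adjusted p = 0.96). Efna1 and Efna2 had log2 fold changes of 0.32 and 0.66 and did not pass. Efna1, Efna3 and Efna4 lie next to each other on chromosome 3, all on the minus strand, with 33999 and 10513 bases between them, and of the 3 only Efna3 passed.

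Per kilobase of exon, the scale on which levels of different genes can be set beside each other, the leading ephrin differed between the cell types. Efna4 held 43.7% of the ephrin sum in mESCs (mean of 3 libraries) and 9.52% in CPCCs, while Efna5 went from 5.43% to 39.5%, Efnb1 from 7.71% to 23.2% and Efnb2 from 2.87% to 18.2%. The ephrin sum was itself higher in CPCCs, 11.8 times in CPM that are not scaled for length. The smaller share of Efna4 goes with a level that was not lower (7.69 CPM per kilobase in mESCs and 11.05 in CPCCs).

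Eph receptors had a smaller summed change than the ephrins. Of 13 listed, 8 were tested, of which 6 were higher and none lower, and Epha1, Epha3, Epha5 and Epha6 were listed only for CPCCs. Epha10 was listed for both but removed by the filter, at 1.17 to 2.16 CPM in mESCs and at most 0.802 CPM in CPCCs. The summed level was 291, 304 and 367 CPM in mESCs against 464, 443 and 408 CPM in CPCCs, 1.37 times as high on average, the smallest ratio of the 9 families.

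Epha7 had 5.56, 4.85 and 6.73 CPM in mESCs against 40.9, 64.9 and 85.4 CPM in CPCCs, and it showed the largest rise among the Eph receptors tested (log2 fold change 3.47 ± 0.32, edgeR adjusted p = 2.78e-05). Ephb1 had 0.927, 1.32 and 0.439 CPM against 2.68, 11.6 and 10.2 CPM, with S04 well under the other CPCC libraries (3.16 ± 0.69, adjusted p = 0.00358). Ephb2 had 7.57, 5.30 and 5.56 CPM against 16.3, 48.5 and 33.6 CPM, with S04 again the lowest CPCC library (2.41 ± 0.41). Ephb6, a receptor without kinase activity, and Epha2 rose by 2.14 and 1.30. Ephb4, the receptor for Efnb2 known from veins, had the smallest rise that passed (0.87 ± 0.27, adjusted p = 0.0209), and it no longer passed without S01, S03 or S06 (0.79, 0.78 and 0.70, adjusted p = 0.0743, 0.0663 and 0.0732).

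Epha4, which binds ephrins of both classes, was the most abundant member in mESCs, at 26.0 CPM per kilobase of exon. It had 183, 189 and 256 CPM in mESCs against 202, 138 and 112 CPM in CPCCs, with S04 inside the mESC range and the other CPCC libraries below it. The log2 fold change was -0.47 ± 0.24 (edgeR adjusted p = 0.118), and without S04 it was -0.73 and passed (adjusted p = 0.00374). Ephb3 had 46.2, 51.6 and 43.3 CPM against 32.9, 54.3 and 49.3 CPM, with overlapping groups and a log2 fold change of -0.05 ± 0.22 that turned to 0.15 without S04 and to 0.03 without S02. Of the receptors listed only for CPCCs, Epha1 had 11.997, 11.0 and 8.27 CPM and was at least 23.3-fold higher than 3 counts per mESC library, and Epha3 had 4.17, 10.5 and 6.76 CPM (at least 15.99-fold). Epha5 and Epha6 had CPCC means under the floor, with their highest values in S04 (0.497 and 1.09 CPM), and no fold is given.

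**Figure D2:**
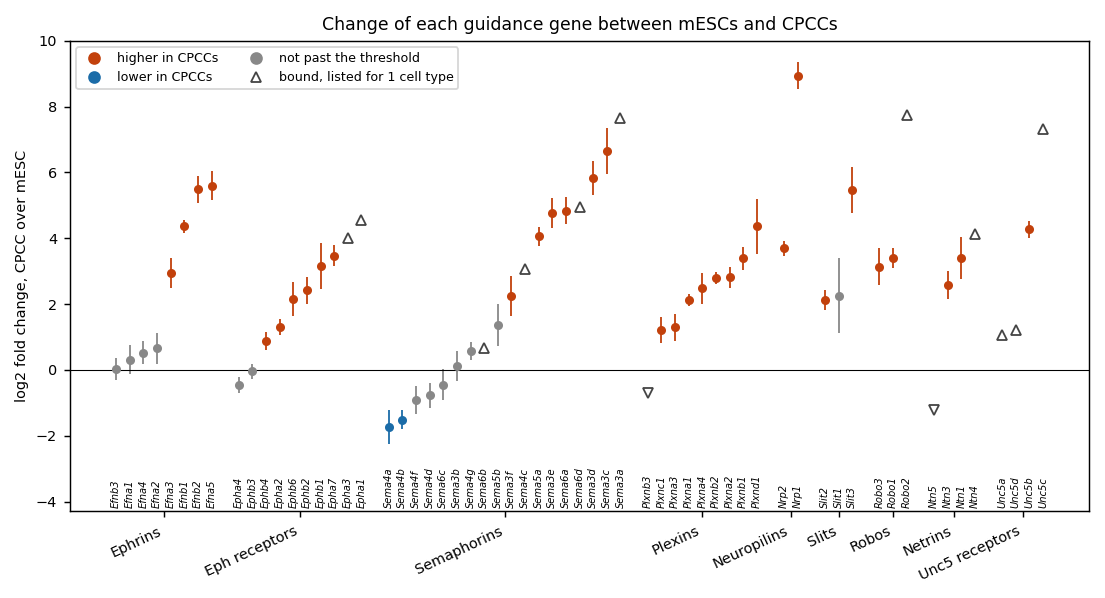
Log2 fold change, CPCC over mESC, of each guidance gene that was tested (filled points, bars show 1 SE, orange higher, blue lower, grey not past the threshold) or was listed for 1 cell type only (open triangles, the bound against 3 counts per library). Epha5, Epha6, Robo4 and Sema7a, whose CPCC means were under that floor, are not drawn. Nrp1 stands highest at 8.94, all 8 plexins tested are above 0, and the only blue points are Sema4a and Sema4b.

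Of 19 semaphorins listed, 14 were tested, with 6 higher, 2 lower and 6 not passing, and 5 were listed only for CPCCs. The secreted class 3 semaphorins had a median log2 fold change of 4.76 with 4 of 5 tested higher, while the membrane-bound class 4 semaphorins had a median of -0.93 with 2 of 5 tested lower (29.7% over all genes) and none higher. The call of Sema4a was lost without S01 or S05. The summed level of class 3 was 7.88, 7.80 and 11.7 CPM in mESCs against 392, 239 and 190.5 CPM in CPCCs. That of class 4 was 68.7, 63.0 and 56.2 CPM against 32.0, 41.1 and 47.7 CPM, so that the groups stood apart in opposite directions. No test of the difference between the classes was made.

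Sema3c, a secreted semaphorin needed for septation of the outflow tract, had 0, 1.18 and 1.76 CPM in mESCs against 163, 89.1 and 51.5 CPM in CPCCs, the largest rise of a semaphorin tested (log2 fold change 6.65 ± 0.70, edgeR adjusted p = 5.83e-05). Sema3d had 0.463, 0.147 and 0.878 CPM against 41.4, 24.3 and 21.8 CPM (5.83 ± 0.52, adjusted p = 2.40e-05). S04 was the highest library for both, and without S03 the values were 7.36 and 6.52. Sema3e, which binds Plxnd1 without a neuropilin, rose by 4.76 and Sema3f, a ligand of Nrp2, by 2.24 (3.05 without S01). Sema3b was the class 3 member that did not pass (0.13, and -0.13 without S01). Sema3a, the best known Nrp1 ligand, was listed only for CPCCs at 114, 86.7 and 70.4 CPM, at least 202-fold above 3 counts per mESC library. Sema3d, Sema3a and Sema3e follow each other on chromosome 5 on the plus strand, with 807840 and 421790 bases between them, and each was higher or listed only in CPCCs, whereas the neighbours Sema3b and Sema3f on chromosome 9, 72260 bases apart, differed in their calls.

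Both of the tested members that passed as lower were class 4 semaphorins. Sema4b had 32.0, 23.5 and 21.6 CPM in mESCs against 6.96, 8.49 and 11.6 CPM in CPCCs, and the groups did not overlap (log2 fold change -1.51 ± 0.29, edgeR adjusted p = 0.00173). Sema4a, also known from the immune system, had 13.0, 9.12 and 7.46 CPM against 1.39, 2.55 and 4.93 CPM (-1.74 ± 0.51, adjusted p = 0.0152), and it did not pass without S01 or S05 (-1.49 and -1.64, adjusted p = 0.0648 and 0.0526). Sema4d, the ligand of Plxnb1, and Sema4f had lower values in every CPCC library but did not pass (-0.77 and -0.93), and Sema4g was the exception with a positive value, 11.6, 10.9 and 7.75 CPM against 13.8, 16.4 and 14.9 CPM (0.58 ± 0.28, adjusted p = 0.0969). Sema4c, a ligand of Plxnb2, was listed only for CPCCs at 2.88, 3.88 and 4.58 CPM (at least 8.45-fold). Per kilobase Sema4b held 27.3% of the semaphorin sum in mESCs and 2.702% in CPCCs, and Sema3c 0.873% and 23.5%.

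The membrane-bound class 5 and class 6 semaphorins were mixed. Sema6a, a ligand of Plxna2 and Plxna4, had 3.09, 1.62 and 1.32 CPM against 37.7, 57.5 and 77.4 CPM (log2 fold change 4.84 ± 0.41, edgeR adjusted p = 1.75e-05). Sema5a rose by 4.05 ± 0.28, to 102, 104 and 87.2 CPM. Its paralogue Sema5b had 26.3, 18.4 and 22.7 CPM in mESCs against 9.05, 73.5 and 91.5 CPM in CPCCs, so that S04 lay below every mESC library and S05 and S06 above them. Sema5b did not pass (1.37 ± 0.64, adjusted p = 0.0916) but did without S04 (1.89, adjusted p = 7.50e-06) and by DESeq2 (1.36, adjusted p = 0.0383). Sema6d, a ligand of Plxna1 known from heart morphogenesis, was listed only for CPCCs at 10.3, 10.5 and 20.3 CPM (at least 30.6-fold), and Sema6b and Sema7a were listed only there at no more than 1.03 CPM. Sema6c did not pass (-0.45).

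All 8 plexins tested were higher in CPCCs, from 1.21 (Plxnc1) to 4.36 (Plxnd1) on the log2 scale, and the summed level went from 111, 121 and 126 CPM to 641, 698 and 568 CPM. Plxnd1, the receptor of Sema3e in vessels and the outflow tract, had 0.154, 2.21 and 0 CPM in mESCs against 18.8, 16.01 and 15.0 CPM in CPCCs (4.36 ± 0.83, edgeR adjusted p = 0.00171). Of its 16 mESC reads, S02 held 15, and without S02 the value was 7.52, while the CPCC libraries were close to each other. Plxnb1, the receptor of Sema4d, had 4.33, 5.88 and 3.36 CPM against 29.9, 58.3 and 54.1 CPM (3.38 ± 0.35, adjusted p = 5.03e-05). Plxna2 had 4.33, 10.1 and 7.90 CPM against 48.8, 58.9 and 49.9 CPM (2.81 ± 0.31).

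Plxna1 and Plxnb2 were the most abundant plexins per kilobase in both cell types, with 58.1% and 25.3% of the plexin sum in mESCs and 47.7% and 33.4% in CPCCs, and they rose by 2.13 and 2.80. Plxna4 rose by 2.48. Plxna3 (1.29 ± 0.40, edgeR adjusted p = 0.0200) did not pass without S01, S03 or S05 (adjusted p = 0.0694, 0.0513 and 0.0962), and Plxnc1 (1.21 ± 0.40, adjusted p = 0.0271) did not pass without S01, S02, S03 or S05 (adjusted p = 0.0661, 0.0582, 0.0649 and 0.0895). Plxnb3 was listed only for mESCs, at 0.154, 0.588 and 0.878 CPM. The antisense transcript Plxna4os1 was listed only for CPCCs, at 0.398, 1.09 and 0.573 CPM.

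The summed neuropilin level was 72.2 times as high in CPCCs, the largest ratio of the 9 families. Nrp1, the co-receptor for Sema3a and for vascular endothelial growth factor, had 0.927, 1.77 and 1.46 CPM in S01 to S03 against 982, 617 and 478 CPM in S04 to S06. Its log2 fold change of 8.94 ± 0.40 (edgeR adjusted p = 1.33e-06) was the ninth largest rise of the 12471 genes tested, and it was 8.62 without S04. Nrp2, the co-receptor for Sema3f, had 10.5, 10.1 and 9.36 CPM against 131, 158 and 101 CPM (3.70 ± 0.23, adjusted p = 3.67e-06).

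The order of the neuropilins differed between the cell types. Per kilobase of exon the ratio of Nrp1 to Nrp2 was 0.107, 0.210 and 0.189 in S01 to S03 and 9.04, 4.72 and 5.73 in S04 to S06. Nrp1 was therefore below Nrp2 in every mESC library and above it in every CPCC library, and its mean share of the neuropilin sum went from 14.3% to 85.9%. The Nrp1 gene spans chr8:128359073-128505476 in GRCm38, and its exons overlap on the same strand only the microRNA gene Mir1903, over 80 bases.

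**Figure D3:**
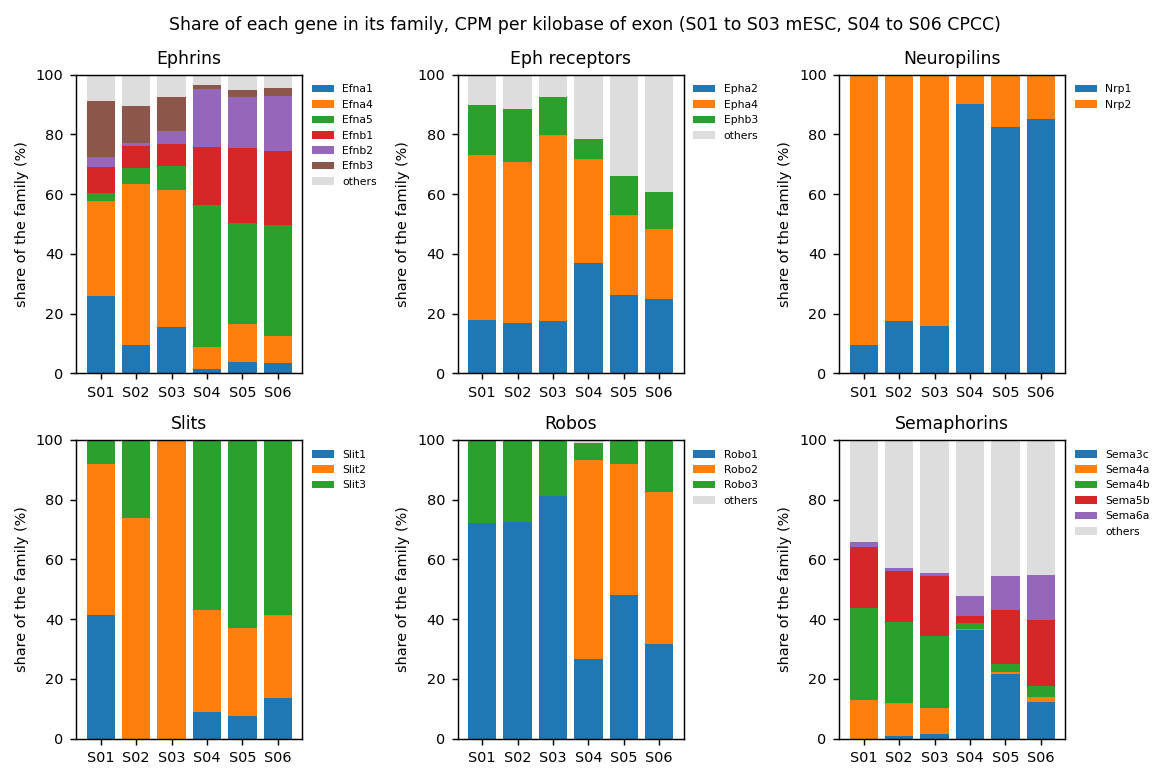
Share of each gene in the summed CPM per kilobase of exon of its family, in percent, for 6 families, with mESC libraries S01 to S03 and CPCC libraries S04 to S06 as stacked bars. The genes drawn are those ranked in the top 3 of either cell type, the rest are in grey, and Nrp1, Slit3 and Robo2 take a larger share in every CPCC library than in any mESC library.

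Slits and Robos were mostly higher in CPCCs, with 2 of 3 Slits and 2 of 2 Robos tested passing. Slit3 had 0.618, 1.47 and 0 CPM in mESCs against 20.8, 48.7 and 25.7 CPM in CPCCs (log2 fold change 5.48 ± 0.70, edgeR adjusted p = 0.000176), and Slit2 had 16.2, 17.5 and 12.1 CPM against 52.0, 96.4 and 51.2 CPM (2.12 ± 0.30, adjusted p = 0.000313). S05 was the highest library for both. With 1 mESC library left out the Slit3 value ranged from 4.89 (without S03) to 6.64 (without S02). Slit1 had 3.09, 0 and 0 CPM against 3.18, 5.70 and 5.84 CPM and did not pass (2.25 ± 1.15, adjusted p = 0.116). Without S01, the mESC library that held all of its mESC counts, it passed (8.32, adjusted p = 0.00218). With 0 counts left in mESCs, the size of that value is not well set. Per kilobase Slit2 held 74.8% of the Slit sum in mESCs and 30.5% in CPCCs, and Slit3 11.4% and 59.5%.

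Robo1, a Slit receptor also active outside the nervous system, had 3.86, 5.59 and 6.14 CPM in mESCs against 62.9, 62.0 and 40.2 CPM in CPCCs (log2 fold change 3.40 ± 0.29, edgeR adjusted p = 1.85e-05). Robo3, known from commissural neurons, had 0.618, 0.883 and 0.585 CPM against 5.47, 4.12 and 9.05 CPM (3.13 ± 0.56, adjusted p = 0.00122). Robo2 was listed only for CPCCs at 161, 58.0 and 66.8 CPM, at least 213-fold above 3 counts per mESC library. Without S04 this bound was 139-fold, below the 175-fold of Sema3a. It lies 846205 bases from Robo1 on chromosome 16 on the opposite strand, and per kilobase it held 53.8% of the Robo sum in CPCCs. Robo4, known from endothelium, was listed only for CPCCs at 0.895, 0.121 and 0.115 CPM, a mean under the floor, and no fold is given.

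Among the netrins, Ntn1, the founding secreted netrin, had 11.1, 16.3 and 12.4 CPM in mESCs against 33.5, 266 and 118 CPM in CPCCs. Every CPCC library was above every mESC library, but the CPCC libraries were spread widely with S04 the lowest (log2 fold change 3.39 ± 0.64, edgeR adjusted p = 0.00158, 3.86 without S04 and 2.51 without S05). Ntn3 had 4.63, 2.79 and 1.90 CPM against 14.5, 26.8 and 14.7 CPM (2.58 ± 0.43, adjusted p = 0.000795). Its exons overlap those of Tbc1d24 on the same strand over 89 bases and those of the antisense gene BC028777 over 139, and its CPCC counts were not whole numbers, so reads may have been divided among these genes. Ntn4, a netrin of basement membranes, was listed only for CPCCs at 7.16, 9.70 and 6.65 CPM (at least 17.5-fold), and Ntn5 only for mESCs at 0, 1.18 and 1.19 CPM.

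Unc5b, a netrin receptor of neurons and vessels, had 22.7, 23.8 and 30.1 CPM in mESCs against 647, 448 and 387 CPM in CPCCs (log2 fold change 4.27 ± 0.25, edgeR adjusted p = 3.13e-06). It was the most abundant member in CPCCs per kilobase, at 78.9 CPM per kilobase, followed by Nrp1 at 70.8 and Efna5 at 47.2. Unc5c, known from cerebellar and axonal migration, was listed only for CPCCs at 84.9, 54.8 and 73.9 CPM (at least 159-fold), while Unc5a and Unc5d were listed there at no more than 1.58 CPM. Dcc, the netrin receptor that works beside Unc5 proteins, was listed only for CPCCs at 10.1, 16.1 and 22.6 CPM (at least 36.4-fold), and Neo1 rose by 1.38 from 27.0, 31.5 and 33.2 CPM to 64.4, 76.8 and 97.3 CPM. Of the genes matched by spelling alone, Unc50 had 31.8, 21.2 and 33.2 CPM against 53.4, 40.1 and 37.9 CPM (0.61 ± 0.24, adjusted p = 0.0532), and Unc5cl was listed only for mESCs at 3.40, 2.79 and 5.12 CPM (at least 11.2-fold lower in CPCCs).

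**Figure D4:**
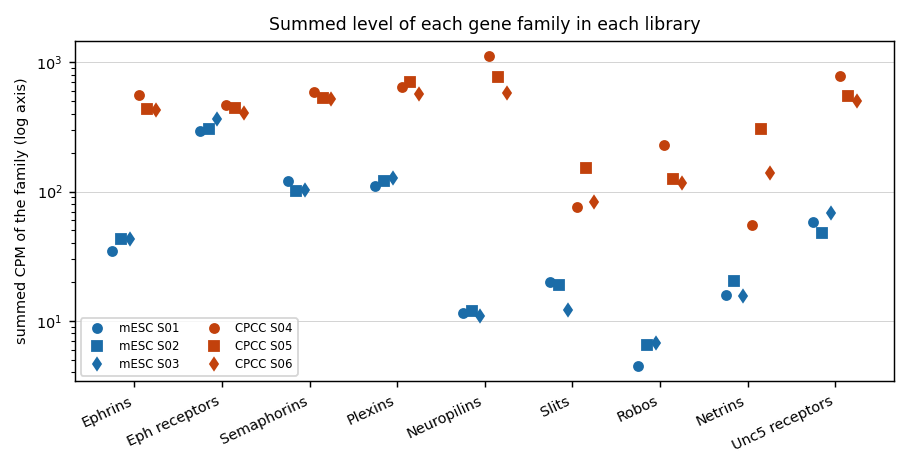
Summed CPM of each of the 9 gene families in every library on a log axis, with mESC libraries in blue and CPCC libraries in orange. The groups stand apart in every family, with the widest gap in the neuropilins (72.2 times on average) and the narrowest in the Eph receptors (1.37 times), and the Unc5 sum includes Unc50 and Unc5cl, which the rule matched by spelling alone.

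Members listed for CPCCs alone made up 23.2% of the 69 guidance genes, against 15.5% of all 16279 genes. Of those 16 members, 7 had a bound of at least 10-fold (27.1% of all genes listed only for CPCCs), and the median bound was 5.37 against 3.30 over all such genes. The 7 were Robo2, Sema3a, Unc5c, Sema6d, Epha1, Ntn4 and Epha3. The smallest row sum in either table was 10 counts, so a gene missing from a table may still have had a few reads there.

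Within the CPCCs, some guidance genes varied widely between libraries. For 51 members with a mean of at least 5 CPM in CPCCs, S04 was set against the mean of S05 and S06, with 0.5 CPM added to both. On this scale S04 was at least 2-fold below that mean for 5, namely Sema5b, Ntn1, Ephb1, Ephb2 and Plxna3, with log2 ratios of -3.12, -2.50, -1.84, -1.31 and -1.20. Epha3 fell just short (-0.97) and is not counted, though it would be without the added 0.5 CPM. S04 was at least 2-fold above that mean for 3, namely Robo2, Sema3c and Sema3e, with 1.36, 1.20 and 1.03. Together these were 15.7% of the members, against 14.3% of 11417 genes of that level, a share near that of all genes. S04 also had the highest summed cardiac marker level, 161 CPM against 53.8 and 70.0 CPM. Most of this was Tnnt2, at 103 CPM in S04 against 24.0 and 28.3 CPM. Nkx2-5, Isl1, Mef2c, Hand2 and Myh6 were highest in S04 as well. Gata4 (1.99 against 2.79 and 5.62 CPM) and Pdgfra (2.29 against 3.52 and 7.45 CPM) were lowest there, and Kdr lay between S05 and S06. Of the 10 neural markers, 6 were lower in S04 than in S05 and S06, among them Sox1 (3.78 against 23.4 and 50.9 CPM), Pax6 (4.62 against 14.2 and 18.2 CPM), Pou3f2 (4.77 against 17.3 and 32.0 CPM) and Dcx (9.34 against 22.6 and 38.6 CPM), while Tubb3 and Stmn2 were highest in S04 and the neural sum was 1280 against 1091 and 1065 CPM. Whether these differences go together was not tested.

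**Figure D5:**
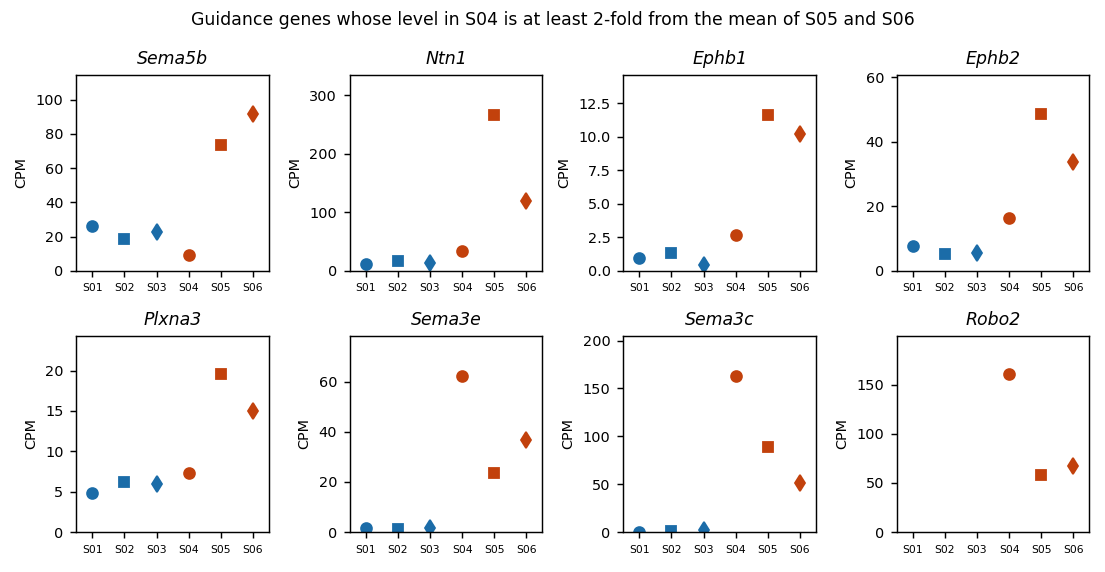
CPM in each library for 8 guidance genes, with mESC libraries in blue and CPCC libraries in orange and each vertical axis starting at 0. Their mean in CPCCs was at least 5 CPM, and S04 was at least 2-fold from the mean of S05 and S06 once 0.5 CPM was added to both. S04 is the lowest CPCC library for Sema5b, Ntn1, Ephb1, Ephb2 and Plxna3 and the highest for Sema3e, Sema3c and Robo2, and Robo2 has no mESC values because it was listed only for CPCCs.

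A list of 61 partners of these proteins (other netrin and Slit receptors, co-receptors, and the cytosolic proteins that pass the signals to the cytoskeleton) was also higher for the most part. Of 51 tested, 29 were higher, 2 were lower and 20 did not pass (31.7% higher and 29.7% lower over all genes), and the median log2 fold change was 1.32 (0.03 over all genes). Of the 61 partners, 9 were listed only for CPCCs, a share near the 15.5% of all genes. Dpysl3 and Dpysl2, cytosolic proteins of semaphorin signalling, had 15.1, 18.8 and 19.9 CPM against 719, 813 and 559 CPM and 7.26, 2.50 and 4.68 CPM against 79.4, 114 and 115 CPM, rises of 5.28 and 4.42. Flrt2, a membrane protein that binds Unc5 receptors, rose by 5.09, from 7.11, 10.6 and 10.5 CPM to 448, 286 and 233 CPM. Crmp1, of the same family as Dpysl2, and Mical2, of the actin-oxidising enzymes that act beneath plexins, were listed only for CPCCs (at least 129-fold and 164-fold).

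The partners that fell did so by small amounts. Tiam1, an exchange factor that activates Rac, had 11.3, 12.2 and 13.9 CPM against 5.37, 6.79 and 7.45 CPM (log2 fold change -0.93 ± 0.30, edgeR adjusted p = 0.0229). Mical1 had 54.5, 74.0 and 46.7 CPM against 27.2, 36.7 and 30.4 CPM (-0.89 ± 0.23, adjusted p = 0.00791). For each, every CPCC library was below every mESC library. Tiam1 did not pass without S02, S03 or S05 (adjusted p = 0.0580, 0.0670 and 0.0561).

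Gene length and promoter letters, which the rule did not use, were not tested. The members' median span in the GRCm38 annotation was 51458 bases over 66 members with a span, against 22659 over 16009 genes, and 31 of them (47.0%) were longer than 100000 bases, against 13.8% of all. RefSeq promoters were found for 59 of the 69. Over their 75 promoters the median ratio of observed to expected CpG was 0.66, against 0.76 over 12439 promoters of the genes tested and 0.38 over all 32851 promoters. It was 0.735 over 31 promoters of members that rose and 0.40 over 13 promoters of class 4 semaphorins, of which 1 gene can have several. The GC box GGGCGG, searched on both strands, was in 70.7% of the members' promoters (63.8% of those of genes tested, 35.7% of all promoters), and TATAAA, also on both strands, in 2.67% (6.70% and 13.6%). These are letters in a window of 300 bases, not sites of a factor.

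Exons of some members overlap those of other genes in the annotation, on the opposite strand for Plxna1 (970 bases with Gm26811), Plxnb1 (257 with Gm7628), Efna3 (344 with Gm15998), Efna4 (168 with 4731419I09Rik) and Epha1 (236 with Zyx). These are parts of 9054, 9592, 2434, 1599 and 3928 exon bases, in that order. Whether the counting used strand is not given in the sources used here. Reads within the overlaps therefore cannot be told apart from those of the overlapping genes, which leaves reads elsewhere in these genes unaffected.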

How the data were processed

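The authors deposited 1 table of estimated counts per gene for each cell type, made from paired-end reads of poly(A) SMART-Seq v4 libraries. The submitters' processing notes name STAR 2.7 and the build mm10, and the counter of these tables and its use of strand are not given in the sources used here. Values were rounded to whole numbers. The 13001 genes in both tables were tested with edgeR 4.0.16 in R 4.3.3 (TMM normalization, the filterByExpr filter, which removed 530 genes, the quasi-likelihood test, Benjamini-Hochberg adjustment over 12471 genes, threshold 0.05), with no covariate. DESeq2 (the study's tool, here in version 1.42.0) was an alternative, as were other normalizations, filters and left-out libraries. CPM are counts per 1000000 of the TMM-scaled library size. Genes missing from a table were given a bound against 3 counts per library there, which covers counting error only. Levels per kilobase used GENCODE M21 exon unions.

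The test was checked on simulated counts for CPCC against mESC over 13001 genes, where edgeR recovered 128 of 200 changed genes (105 of 120 at 4-fold or more) and called 17 unchanged ones. Only these 200 genes were changed there, whereas 61.4% of genes tested were called in the data. The normalization was therefore not checked under a change as wide as that of the data. Members and gene lists were chosen with earlier results of these data known. Each value per library was given in each family for up to 3 members that rose most and 3 that fell most, for the 2 most abundant that did not pass and the 2 with the largest bounds, and for the partners that rose or fell most (3 each). Epha10, Robo4, Sema4c, Sema5a, Dcc, Neo1 and other genes given with values beyond that rule were chosen after their values were seen. The CPCCs were derived from the mESC clones, but the columns do not say which library is which clone, and p-values measure the spread between these libraries.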

Additional observations from a re-analysis of the deposited data

How the results depend on the processing

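No paired analysis was possible because the columns carry no replicate numbers. Of 35 guidance genes past the threshold, 4 lost the call under at least 1 alternative (Ephb4, Plxna3, Plxnc1 and Sema4a, each with a library left out), and 4 that did not pass gained it under at least 1 (Epha4, Sema5b, Slit1 and Unc50). Requiring 10 counts in every sample left 20 members higher and a median log2 fold change of 1.37, since genes low in mESCs are then not tested. Entering missing genes at 0 or 3 counts gave medians of 2.83 and 2.74 (0.17 and 0.07 over all genes). With each library left out in turn, 30 to 34 members were higher, 1 to 3 were lower (1 without S01 or S05), the median lay between 2.23 and 2.71, 26 to 30 partners were higher and 1 to 2 lower. No partner was lower at a threshold of 2-fold. Unc50 passed in 7 settings, among them DESeq2 (0.61, adjusted p = 0.0488). Some values near 0 changed sign. Ephb3 (-0.05) went to 0.019 with 10 counts in every sample and ranged from -0.19 to 0.15 with a library left out. Efnb3 (0.02) went to -0.048 with missing genes at 3 counts and ranged from -0.13 to 0.20, Sema3b (0.13) from -0.13 to 0.45 and Enah from -0.035 to 0.28. Dag1 went to -0.025 with missing genes at 3 counts and ranged from -0.11 to 0.15. Limk1 went to 0.0048 without a filter, 0.050 with 10 counts in every sample and 0.0069 with missing genes at 0, and ranged from -0.25 to 0.17. The cause of these changes was not tested. Family ratios on library totals without TMM and bounds with a CPCC library left out were chosen after seeing the data. Genes at a few counts per library, such as Plxnd1 and Slit1 in mESCs, limit the precision of their fold changes.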
